A study of Mus musculus with 16 samples.

Results

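Complex I (NADH:ubiquinone oxidoreductase) is the entry point of electrons from NADH into the mitochondrial respiratory chain. A peripheral arm in the matrix oxidises NADH on a flavin and passes the electrons along iron-sulfur clusters to ubiquinone, and a membrane arm pumps protons. The core subunits of the peripheral arm are encoded in the nucleus and those of the membrane arm in mitochondrial DNA, and a large number of nuclear accessory subunits surround them. Sensory neurons, with long axons and sustained ion pumping, depend heavily on this chain. The nuclear complex I genes described here were all protein-coding genes whose mouse symbol starts with Nduf. They numbered 46 of the 52636 genes in the count files, and 45 of them were among the 21371 genes that passed the filter on low counts.

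RNA was sequenced from L3 to L6 dorsal root ganglia (DRG) of 16 male C57BL/6J mice, aged 3 to 4 months, with 1 mouse per library and 4 mice in each of 4 groups. Mice received tibial spared nerve injury (SNI) or sham surgery, and then desipramine (DMI, a tricyclic antidepressant that blocks noradrenaline reuptake) at 15 mg/kg i.p. or saline, 2 times per day for 3 weeks. All 4 groups therefore underwent surgery and repeated injection, and the groups are called by surgery and treatment, Sham-Saline and Sham-DMI, SNI-Saline and SNI-DMI. The series design places the start of treatment 4 weeks after surgery, whereas the methods text gives 4 months. Spinal cord is the tissue named in the sample labels, with DRG given as cell type. All 10 sensory neuron markers were detected, at 10045 to 13089 CPM in sum (CPM are counts per 1000000 gene reads, on library sizes scaled by the trimmed mean of M-values), and the 8 spinal cord markers summed to 12.01 to 22.99 CPM, with Mnx1, Mog, Olig2 and Slc6a5 below 1 CPM in every library.

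Between 41194238 and 73920332 read pairs per library were counted on genes, and the members together took 0.318% to 0.46% of them. Library numbers in the labels ran from 17 to 24 in the DMI groups and from 33 to 40 in the saline groups, in blocks of 4 per group, so the groups of every comparison, of surgery and of drug, cannot be told apart from anything that followed the library number. Skeletal muscle markers reached 274.8 CPM in sum in SNI-DMI replicate 2 and 3.35 to 76.6 CPM in the other libraries. The share of read pairs that fell outside annotated genes was 8.67% to 9.44% for Sham-Saline libraries, 7.73% to 9.14% for SNI-Saline libraries, 7.10% to 8.79% for Sham-DMI libraries and 7.42% to 8.38% for those of SNI-DMI. Counts are given also with this share as a covariate, an alternative chosen after seeing the data. A tissue sample with fewer cells of a type cannot be told apart from one with less RNA per cell.

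Nuclear respiratory chain genes are often transcribed from GC-rich promoters without a TATA box, in which sites for nuclear respiratory factor 1 (NRF-1), GABP (an ETS factor) and YY1 are common. RefSeq promoter windows of GRCm38.p6, from 250 bases before to 50 bases after the start, were found for 40 of the 46 members (42 windows). The NRF-1 core TGCGCA, which reads the same on both strands, lay in 12 windows (28.6%) of 11 members, against 9.74% of 21263 windows of protein-coding genes. ATGGCGG, a YY1 core searched on both strands, lay in 26.2% of the member windows and 5.25% of those of protein-coding genes. The ETS core CCGGAAG (14.3% against 11.6%) and the letters TATAAA (11.9% against 12.6%) differed less. No motif holds another one within its letters, and a match is a description of the letters and not a shown binding site. The windows of members were also slightly richer in GC, with a median of 59.3% against 56.3%.

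Upstream sequences with TGCGCA are shown for 4 subunits from the Q module and both parts of the membrane arm and for Ndufaf4, an assembly factor with negative log2 fold changes in the comparisons below. Each is 130 bases long, overlaps no annotated exon, and is written 5′ to 3′ on the strand of the gene with TGCGCA in capitals. The positions in GRCm38 are chr4:123718203-123718332 (minus strand) for Ndufs5, chr15:82354323-82354452 (minus strand) for Ndufa6, chr6:126849145-126849274 (minus strand) for Ndufa9, chr4:40279422-40279551 (minus strand) for Ndufb6 and chr4:24897953-24898082 (plus strand) for Ndufaf4. Relative to the RefSeq start, the match begins at -99, -80, -56, -78 and -114 in this order.
Ndufs5: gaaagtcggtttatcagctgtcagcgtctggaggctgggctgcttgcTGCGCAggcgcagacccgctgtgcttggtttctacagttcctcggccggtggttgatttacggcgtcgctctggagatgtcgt
Ndufa6: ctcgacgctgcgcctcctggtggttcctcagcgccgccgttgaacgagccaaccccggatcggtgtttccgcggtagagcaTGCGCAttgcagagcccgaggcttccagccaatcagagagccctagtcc
Ndufa9: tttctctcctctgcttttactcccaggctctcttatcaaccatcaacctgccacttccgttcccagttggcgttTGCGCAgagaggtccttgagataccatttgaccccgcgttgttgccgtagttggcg
Ndufb6: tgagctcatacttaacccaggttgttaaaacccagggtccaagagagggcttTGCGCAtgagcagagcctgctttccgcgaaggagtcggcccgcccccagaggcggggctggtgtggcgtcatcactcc
Ndufaf4: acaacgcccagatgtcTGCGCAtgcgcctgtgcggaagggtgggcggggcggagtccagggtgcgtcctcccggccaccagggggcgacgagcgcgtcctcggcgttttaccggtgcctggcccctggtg

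Members differed widely in level. Per kilobase of principal transcript, Ndufa4 was highest with a mean of 599 CPM per kilobase over the 16 mice, followed by Ndufa11 (206), Ndufb8 (193) and Ndufa7 (169.5). Ndufa4, first described as a complex I subunit, is now assigned to cytochrome c oxidase (complex IV). The 5 core subunits that carry flavin or iron-sulfur clusters ranged from 66.1 for Ndufs1 to 137 CPM per kilobase for Ndufs8. The Ndufaf assembly factors, which assist the building of the complex without being part of it, were all low, from 6.95 (Ndufaf6) to 32.97 CPM per kilobase (Ndufaf2). Ndufa4l2, a paralog of Ndufa4 that is induced by hypoxia, was the lowest member tested at 1.06 CPM per kilobase. Ndufab1, the mitochondrial acyl carrier protein, which also serves fatty acid synthesis, stood at 26.2 CPM per kilobase and was the lowest of the subunits tested.

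Ndufs3, a core subunit of the Q module, was listed with 24 read pairs over all 16 libraries and at most 6 in any library, and was not tested. Its count is given as listed and is not read here as a level of expression. Kbtbd4, which lies on the opposite strand and shares 88 exon bases with Ndufs3, was listed at 0 in every library. Whether reads of this locus were lost in counting was not tested. Other members share exon bases with genes on the opposite strand, among them Ndufb5 with Mrpl47 (616 bases), Ndufa13 with Tssk6 (375 bases) and Ndufb6 with Smim27 (257 bases). On the same strand, Ndufb9 shares exon bases with Gm49356 (201 bases), Ndufb2 with Gm42420 (145 bases) and Ndufb8 with Gm20538 (134 bases). What these overlaps did to the counts of the members was not tested. The strand setting of the counting is not given in the sources used here.

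Across the 16 mice the members moved largely together. The mean log2 CPM over the 45 members, each relative to its own mean over all mice, was -0.22, -0.12, -0.29 and -0.16 in the Sham-Saline mice and 0.05, 0.00, -0.07 and -0.01 in the SNI-Saline mice. It was 0.18, -0.06, 0.07 and 0.19 in the Sham-DMI mice and 0.10, 0.09, 0.15 and 0.10 in the SNI-DMI mice. All 4 Sham-Saline mice lay below all other mice, and the 4 SNI-DMI mice lay within a narrow band. Sham-DMI overlapped both SNI groups, with replicate 2 lowest. The group means were -0.20 ± 0.07 for Sham-Saline, -0.01 ± 0.05 after SNI with saline, 0.09 ± 0.12 for Sham-DMI and 0.11 ± 0.03 after SNI with DMI (SD, n = 4). In Sham-Saline 1 to 3 of the 45 members were above their own mean, and in SNI-DMI 35 to 44 were. By replicate, 36, 26, 10 and 16 were in SNI-Saline and 43, 10, 40 and 45 in Sham-DMI, so the members were divided in some mice. The same count over all genes was not made. The share of read pairs outside genes was 8.79% in Sham-DMI replicate 2 and 9.14% in SNI-Saline replicate 3, the highest of their groups, and these mice had the lowest member means of their groups. In the other groups this did not hold: SNI-DMI replicate 3 had the highest share (8.38%) and the highest member mean of its group, and Sham-Saline replicate 1 the highest share (9.44%) but not the lowest mean.

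**Figure D1:**
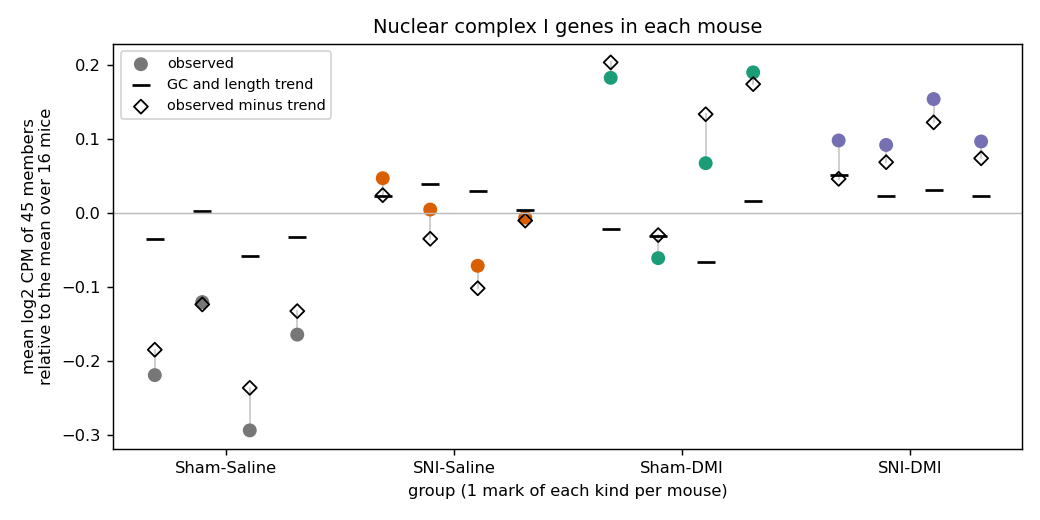
Mean log2 CPM of the 45 tested members in each mouse, relative to each gene's mean over 16 mice (y axis), by group (x axis). Filled circles are the observed means, bars the part fitted from GC content and exon length, and diamonds the observed mean minus that part. The Sham-Saline circles lie lowest (-0.29 to -0.12), and the fitted part stays between -0.07 and 0.05 in all mice.

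The members are short genes. Their principal transcripts had a median length of 861 bases against 2320 bases for all genes tested, and 43 of the 45 were shorter than that median. Their merged exons had a median GC content of 50.2% against 49.1%. Since libraries can differ in how well short or GC-rich transcripts are recovered, a smooth trend of each library on GC content and exon length was fitted over all genes and entered as an offset. Over the members this trend amounted to a mean log2 value of -0.03 in both sham groups (Sham-Saline and Sham-DMI), 0.02 in SNI-Saline and 0.03 in SNI-DMI. The SNI libraries thus had a trend in favour of genes of the members' length and GC content under either treatment. After subtraction the group means were -0.17 ± 0.05, -0.03 ± 0.05, 0.12 ± 0.10 and 0.08 ± 0.03 (SD, n = 4), for Sham-Saline, then SNI with saline, Sham-DMI and SNI with DMI.

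The SNI-Saline versus Sham-Saline comparison asks what nerve injury alone changes in the DRG. Nuclear complex I genes were modestly higher after injury: 29 of 45 rose with an adjusted p under 0.1 and none fell, where 5.85% of all genes tested rose. The median log2 fold change of the members was 0.20, a change of 14.6%, against -0.0006 for all genes, and 44 of 45 values were positive. In 29 of 45 members the 4 SNI-Saline mice all lay above the 4 Sham-Saline mice, as did 7.67% of all genes. By the cut-offs of the study for DEGs (nominal p under 0.05 and a log2 fold change of at least 0.32) 1 member, Ndufs5, was raised, against 3.64% of all genes.

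By place in the complex, 8 of 9 accessory subunits rose in the proximal part of the membrane arm (median 0.25) and 8 of 11 in its distal part (median 0.21). All 4 accessory subunits of the Q module (median 0.21) and 4 of 5 of the N module (median 0.20) rose, the N module being the part that oxidises NADH. Among the 5 core subunits that carry flavin or iron-sulfur clusters 2 rose, Ndufs7 with a log2 fold change of 0.26 (SE 0.06) at an adjusted p of 0.0273 and Ndufv1 with 0.12 (adjusted p = 0.0902). The other 3 had positive values that did not pass, at 0.16 (adjusted p = 0.124) for Ndufs8, 0.13 (adjusted p = 0.22) for Ndufv2 and 0.06 (adjusted p = 0.491) for Ndufs1. Of the 8 Ndufaf assembly factors, 2 passed, Ndufaf3 and Ndufaf5.

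The 3 members with the smallest p after injury, Ndufs5, Ndufc1 and Ndufa13, are all proximal membrane arm subunits. Ndufs5 (ENSMUSG00000028648, chromosome 4, 123712710 to 123718202, minus strand) was measured at 40.4, 45.7, 39.6 and 47.5 CPM under Sham-Saline, 57.4, 54.9, 51.4 and 53.1 CPM under SNI-Saline, 61.7, 55.1, 55.9 and 65.3 CPM under Sham-DMI, and 61.4, 63.9, 65.9 and 64.6 CPM under SNI-DMI. The SNI-Saline mice were all above the Sham-Saline mice, with a log2 fold change of 0.32 (SE 0.07) at an adjusted p of 0.0152. Ndufc1 (ENSMUSG00000037152, chromosome 3, 51404677 to 51408988, minus strand) was measured at 36.97, 39.7, 34.2 and 40.8 CPM under Sham-Saline, 47.7, 48.1, 45.1 and 44.5 CPM under SNI-Saline, 46.6, 43.4, 45.004 and 50.998 CPM under Sham-DMI, and 48.4, 47.7, 48.9 and 50.04 CPM under SNI-DMI. Its levels after injury alone lay above those of every Sham-Saline mouse, with a log2 fold change of 0.29 (SE 0.06) at an adjusted p of 0.0156. Ndufa13 (ENSMUSG00000036199, chromosome 8, 69894180 to 69902558, minus strand), also known as GRIM-19, was measured at 105, 120.1, 105 and 116 CPM under Sham-Saline, 146, 141, 137 and 133 CPM under SNI-Saline, 164, 128, 147 and 160.3 CPM under Sham-DMI, and 161, 150.1, 164 and 153 CPM under SNI-DMI. Here too the groups did not overlap, with a log2 fold change of 0.32 (SE 0.07) at an adjusted p of 0.0174. Before rounding this value lay just under 0.32, so Ndufa13 narrowly missed the DEG cut-off that Ndufs5 narrowly passed.

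With the GC content and length offsets, the injury difference was smaller. Of the 45 members 5 rose (Ndufa13, Ndufab1, Ndufb7, Ndufc1 and Ndufs5), none fell, and the median log2 fold change was 0.14, against 2.29% of all genes raised. Values stayed positive in 44 of 45 members, and the smallest adjusted p belonged to Ndufc1 with 0.26 (adjusted p = 0.0234), Ndufa13 with 0.24 (adjusted p = 0.0438) and Ndufs5 with 0.22 (adjusted p = 0.0501). None of these 5 core subunits passed with the offsets, Ndufs7 standing at 0.16 (adjusted p = 0.126). With the share of read pairs outside genes as a covariate, no member passed edgeR's test at an adjusted p under 0.1 (0.599% of all genes rose), 18 were higher at a nominal p under 0.05, and the median was 0.13. At that nominal p, 3155 of 21371 genes differed in either direction. The count of 29 fell to 8 without Sham-Saline replicate 3, 15 without replicate 1 and 19 without replicate 4 of that group, and to 9 and 12 without SNI-Saline replicates 1 and 2, while the median stayed between 0.16 and 0.23. Of all genes 1250 were called higher with all libraries, and 344, 774, 681, 441 and 452 in these fits in the same order, so calls were lost across all genes. Ndufv1 and Ndufab1 each lost their call when any 1 of 6 libraries was left out, including Sham-Saline replicates 3 and 4 and SNI-Saline replicates 1, 2 and 4, and Ndufb10 without replicate 3 of Sham-Saline and without replicate 1 or 2 of SNI-Saline.

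**Figure D2:**
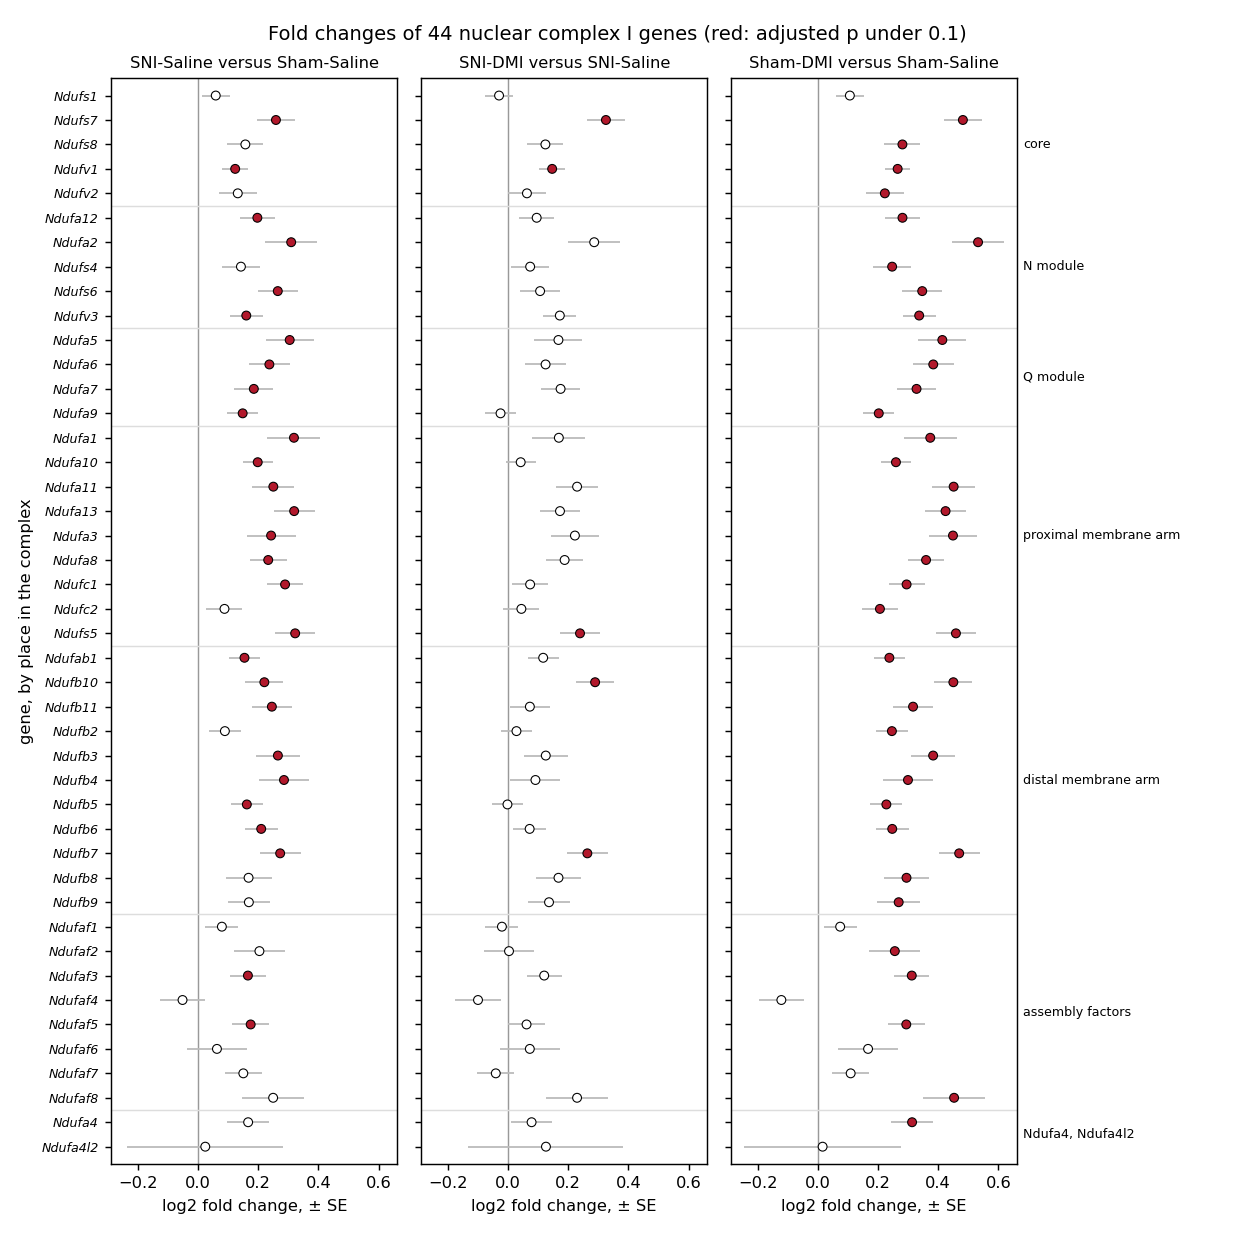
Log2 fold change (x axis, bars ± SE from edgeR) of 44 of the 45 tested members (y axis, by place in the complex) in 3 comparisons. Red points have an adjusted p under 0.1, which holds for 28, 5 and 38 of the members drawn, from left to right, and no member has a red point below 0.

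The Sham-DMI versus Sham-Saline comparison gives the effect of the drug without nerve injury. Here the rise was larger and covered nearly all members: 39 of 45 rose and none fell, where 11.6% of all genes rose. The median log2 fold change was 0.29, a change of 22.7%, against -0.02 for all genes, and 17 members passed the cut-offs for DEGs, against 3.93% of all genes. The groups did not overlap in 28 of 45 members, against 8.62% of all genes. This comparison and the injury comparison share the 4 Sham-Saline mice, so their values are not independent.

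All accessory subunits rose under DMI in sham-operated mice: 5 of 5 in the N module (median 0.34), 4 of 4 in the Q module (0.36), 9 of 9 in the proximal (0.37) and 11 of 11 in the distal membrane arm (0.29). Of the core subunits that carry flavin or iron-sulfur clusters 4 of 5 rose, Ndufs1 being the exception. Assembly factors were mixed, with 4 of 8 raised (Ndufaf2, Ndufaf3, Ndufaf5 and Ndufaf8) and a median of 0.21. The 6 members that did not pass were Ndufs1, Ndufa4l2 and the assembly factors Ndufaf1, Ndufaf4, Ndufaf6 and Ndufaf7.

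Ndufs7, which carries the last iron-sulfur cluster before ubiquinone, had the smallest p of all members in both DMI comparisons. Ndufs7 (ENSMUSG00000020153, chromosome 10, 80249121 to 80256794, plus strand) was measured at 75.7, 80.95, 67.5 and 77.2 CPM under Sham-Saline, 92.9, 95.1, 82.4 and 90.2 CPM under SNI-Saline, 105, 98.99, 99.7 and 117 CPM under Sham-DMI, and 113, 113, 114 and 112 CPM under SNI-DMI. Every Sham-DMI mouse lay above every saline mouse of either surgery, and the 4 SNI-DMI mice lay close together. In the sham groups this gave a log2 fold change of 0.48 (SE 0.06) at an adjusted p of 0.00176. Ndufb10 (ENSMUSG00000040048, chromosome 17, 24722060 to 24724478, minus strand), a distal membrane arm subunit, was measured at 97.2, 98.5, 88.2 and 96.3 CPM under Sham-Saline, 114, 116, 99.9 and 112 CPM under SNI-Saline, 143, 118, 125 and 134 CPM under Sham-DMI, and 133, 132, 145 and 131 CPM under SNI-DMI. Its DMI mice of both surgeries lay above all saline mice, and the sham comparison gave a log2 fold change of 0.45 (SE 0.06) at an adjusted p of 0.00176. Ndufb7 (ENSMUSG00000033938, chromosome 8, 83566671 to 83571626, plus strand), likewise of the distal arm, was measured at 76.7, 83.3, 74.1 and 78.9 CPM under Sham-Saline, 101, 97.5, 88.96 and 90.2 CPM under SNI-Saline, 118, 92.7, 105 and 118 CPM under Sham-DMI, and 114, 115, 116 and 109 CPM under SNI-DMI. Sham-DMI replicate 2 was the lowest DMI mouse and overlapped SNI-Saline but not Sham-Saline, with a log2 fold change of 0.47 (SE 0.07) at an adjusted p of 0.00176. Ndufs5, whose values are given above, rose by 0.46 on the log2 scale (adjusted p = 0.00176).

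In the cofactor-carrying core subunits other than Ndufs1, mean levels were lowest in Sham-Saline, intermediate in SNI-Saline and highest in the DMI groups. Ndufv1 (ENSMUSG00000037916, chromosome 19, 4007384 to 4012806, minus strand), which binds the flavin and NADH, was measured at 182, 177, 170.1 and 176 CPM under Sham-Saline, 199, 196, 187 and 186 CPM under SNI-Saline, 217, 207, 208 and 216 CPM under Sham-DMI, and 209.5, 224, 215 and 203 CPM under SNI-DMI. The DMI mice all exceeded the saline mice, and the sham comparison gave a log2 fold change of 0.27 (SE 0.04) at an adjusted p of 0.00188. Ndufv2 (ENSMUSG00000024099, chromosome 17, 66078638 to 66101559, minus strand), its iron-sulfur partner, was measured at 152, 164, 141 and 149.9 CPM under Sham-Saline, 177, 163, 154 and 173 CPM under SNI-Saline, 196, 158, 172 and 183 CPM under Sham-DMI, and 170.0, 172, 182 and 172 CPM under SNI-DMI. Ndufv2 overlapped between Sham-DMI and Sham-Saline through Sham-DMI replicate 2 and Sham-Saline replicate 2. Its log2 fold change under DMI was 0.22 (adjusted p = 0.023). Ndufs8 (ENSMUSG00000059734, chromosome 19, 3908863 to 3912774, minus strand), which carries a pair of iron-sulfur clusters, was measured at 99.6, 97.1, 85.3 and 93.96 CPM under Sham-Saline, 110.2, 106, 101 and 102 CPM under SNI-Saline, 121, 101, 116 and 118 CPM under Sham-DMI, and 115, 109, 121 and 111 CPM under SNI-DMI. All of its Sham-DMI mice exceeded the Sham-Saline mice, with a log2 fold change of 0.28 (SE 0.06) at an adjusted p of 0.00559. Ndufs1 (ENSMUSG00000025968, chromosome 1, 63143596 to 63176833, minus strand), the largest core subunit of the N module, was measured at 176, 166, 156 and 163 CPM under Sham-Saline, 184, 167, 171 and 167 CPM under SNI-Saline, 175, 176, 175 and 187 CPM under Sham-DMI, and 165, 167, 174 and 169 CPM under SNI-DMI. The sham groups overlapped, and the log2 fold change under DMI of 0.11 (adjusted p = 0.131) did not pass.

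**Figure D3:**
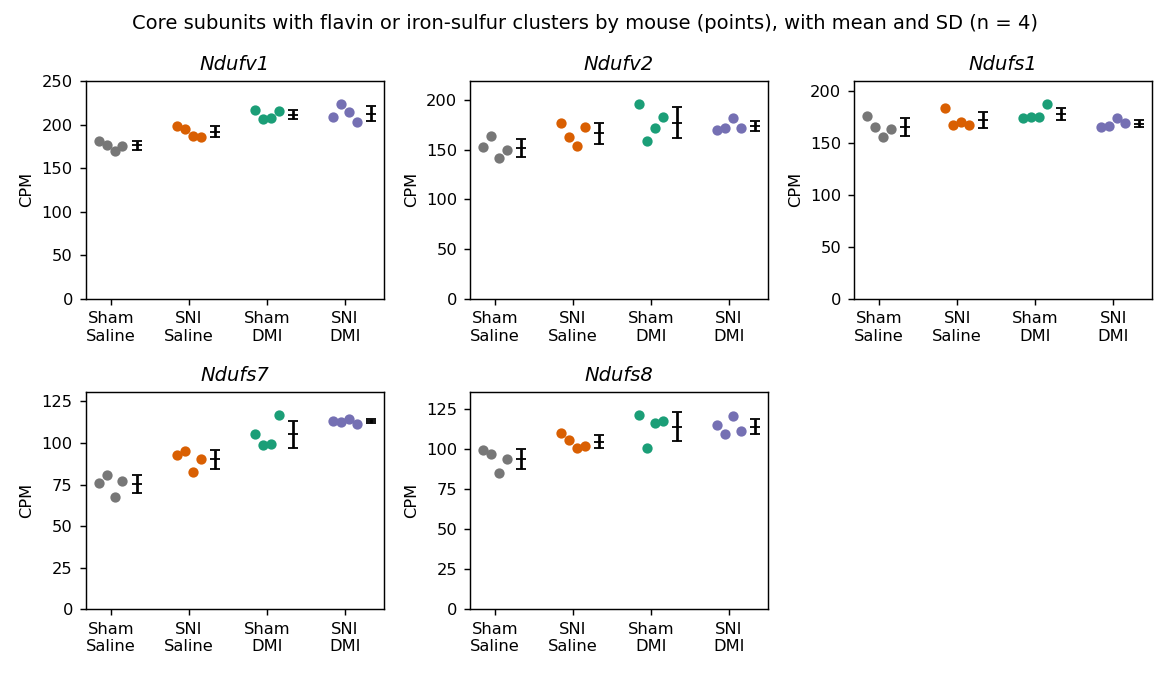
CPM (y axis, from 0) of 5 core subunits in each mouse (points) by group (x axis), with the mean and SD of 4 mice beside the points. Ndufs7 went from a mean of 75.4 CPM in Sham-Saline to 113 in SNI-DMI, while Ndufs1 stayed between 165 and 178 CPM.

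With the GC content and length offsets 41 of 45 members rose under DMI in sham-operated mice, against 15.8% of all genes raised. They included all 39 called without the offsets. The median of the members was 0.32 with the offsets and 0.29 without them. The median of all genes moved up as well, from -0.02 to 0.04. Ndufs1, whose merged exons have 42.4% GC, was then among the raised members at 0.32 (adjusted p = 0.00185), as was the assembly factor Ndufaf7 at 0.22 (adjusted p = 0.0291). With the share of read pairs outside genes as a covariate 23 members passed, against 2.61% of all genes raised, and the median was 0.23. Of the members described by mouse, Ndufs7 (0.41), Ndufs5 (0.38), Ndufb7 (0.35) and Ndufb10 (0.35) kept an adjusted p under 0.1 with the covariate, and Ndufv2 (0.11), Ndufa4 (0.18) and Ndufs8 (0.22) lost it. Leaving out each library in turn gave 38 to 42 members, with a median of 0.28 to 0.36.

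**Figure D4:**
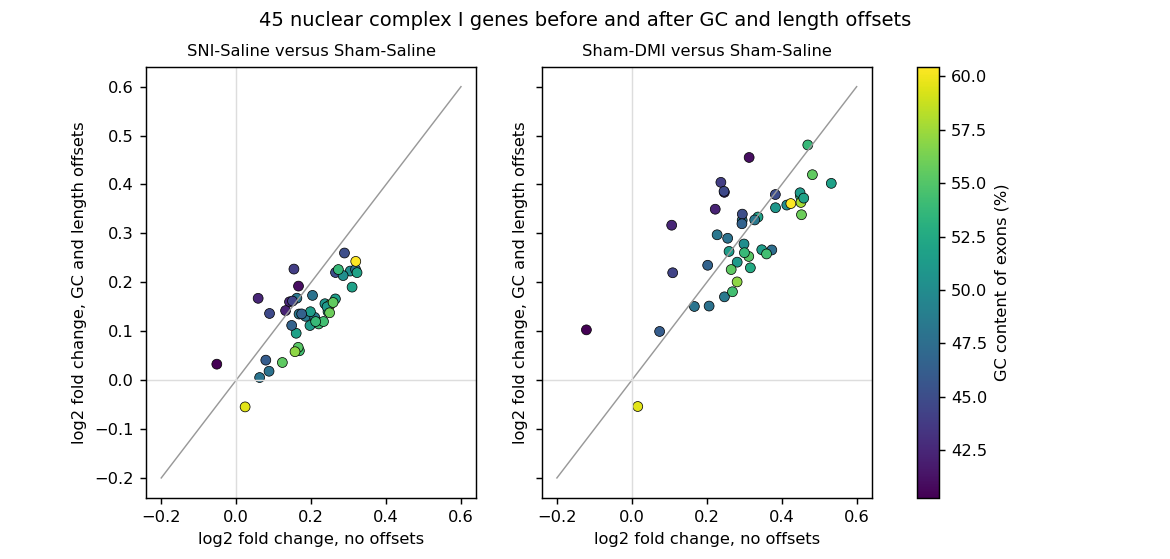
Log2 fold change of each of the 45 tested members without (x axis) and with (y axis) the GC content and length offsets, for injury (left) and for DMI in sham-operated mice (right), coloured by GC content of the exons in %. On the line both are equal. Most injury values move below it (median 0.20 to 0.14), while the DMI values lie on both sides of it (0.29 to 0.32), GC-poor genes above.

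Without the offsets, the size of the change varied with gene properties among the members. Spearman's rho across the 45 genes between the log2 fold change and GC content was 0.38 for injury, 0.68 for DMI under SNI and 0.54 for DMI under sham, and rho with principal transcript length was -0.53, -0.45 and -0.53. With the offsets the values for GC content were -0.22, -0.08 and -0.07, and those for principal transcript length were -0.33, -0.33 and -0.38. The offsets were fitted on merged exon length, for which rho was -0.50, -0.43 and -0.46 without them and 0.01, 0.02 and 0.09 with them. These are descriptions across genes that share the same libraries. The differences among members in the size of the rise, such as between Ndufs7 and Ndufs1, thus went along with GC content and length.

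The SNI-DMI versus SNI-Saline comparison gives the effect of the drug in injured mice. The members again leaned upwards, but by less: 5 of 45 rose and none fell, where 1.32% of all genes rose. The median was 0.12, a change of 8.44%, against -0.0047 for all genes, and 39 of 45 values were positive. The 4 SNI-DMI mice lay above the 4 SNI-Saline mice in 18 of 45 members, against 7.33% of all genes. By the cut-offs for DEGs 1 member, Ndufs7, was raised, against 1.93% of all genes.

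The 5 raised members were Ndufs7 with a log2 fold change of 0.33 (SE 0.06) at an adjusted p of 0.0622, Ndufb10 with 0.29 (adjusted p = 0.063), Ndufb7 with 0.26 (adjusted p = 0.0802), Ndufs5 with 0.24 (adjusted p = 0.0904) and Ndufv1 with 0.15 (adjusted p = 0.0998). In all 5 the groups did not overlap. The members with the smallest p among the 6 negative values were Ndufaf4 with -0.10 (adjusted p = 0.504), Ndufaf7 with -0.04 (adjusted p = 0.767) and Ndufs1 with -0.03 (adjusted p = 0.774), and none of them passed. Ndufaf7 is a methyltransferase that acts during assembly. It was measured at 41.1, 39.6, 38.8 and 37.9 CPM under Sham-Saline, 45.6, 43.8, 41.7 and 43.6 CPM under SNI-Saline, 44.97, 38.2, 40.7 and 45.9 CPM under Sham-DMI, and 38.98, 42.2, 46.05 and 42.6 CPM under SNI-DMI, and its DMI mice overlapped the saline mice under both surgeries.

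These 5 calls depended on the settings and on single libraries. With the GC content and length offsets Ndufs7 alone passed, at 0.25 (adjusted p = 0.0954), against 0.173% of all genes raised, although all 45 members were then positive with a median of 0.10. The median of all genes was 0.02 with the offsets, and 11865 of 21371 were positive. With the share of read pairs outside genes as a covariate 4 members passed, against 1.33% of all genes. No member passed edgeR's test at an adjusted p under 0.1 when any 1 of SNI-Saline replicates 1, 3 and 4 and SNI-DMI replicates 1, 2 and 3 was left out, with 11 to 21 members higher at a nominal p under 0.05. At that nominal p, 2696 to 3780 of all genes differed in either direction. In 5 of these 6 fits no gene of any kind passed in either direction, and without SNI-Saline replicate 4 there were 33 genes higher and 5 lower, so the calls were lost across all genes. The count was 2 without Sham-Saline replicate 2 or 4, 8 without replicate 2 of SNI-Saline, and 10 and 12 without replicates 1 and 2 of Sham-DMI, where 96, 96, 572, 879 and 692 of all genes were called higher in these fits, in the order of libraries given (282 with all libraries). At a nominal p under 0.05, 17 of 45 members were higher in the full fit, against 1900 of 21371 genes. DESeq2 called 10 members at an adjusted p under 0.1, where 847 of 38220 genes were called higher. The comparison shares the SNI-Saline mice with the injury comparison.

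Averaged over both surgeries, DMI raised 38 of 45 members and lowered none, against 14.8% of all genes raised, with a median of 0.20. The smallest p-values belonged to Ndufs7 with 0.40 (adjusted p = 0.000367), Ndufb10 with 0.37 (adjusted p = 0.000367) and Ndufb7 with 0.37 (adjusted p = 0.000391). With the offsets the count was 40, against 17.6% of all genes, and with the share outside genes as a covariate 28, against 5.95%. The cut-offs for DEGs were met by 8 members and 2.44% of all genes.

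The DMI effect was larger in sham-operated than in injured mice in the point estimates of 43 of 45 members. The median of the difference (effect under SNI minus effect under sham) was -0.19 on the log2 scale, against 0.0063 for all genes. With the offsets it was -0.20, against -0.04 for all genes. No member passed edgeR's test of this difference at an adjusted p under 0.1, the smallest being 0.619, and 0% of all genes tested passed in the same fit. DESeq2 called none of the members either, while 12 other genes had a higher and 4 a lower effect under SNI in it. At a nominal p under 0.05, 22 of 45 members had a lower effect under SNI, against 3.98% of all genes. This count fell to 12 when replicate 3 of Sham-Saline or replicate 1 of SNI-Saline was left out, was 13 or 39 when the omitted mouse was replicate 4 or 2 of Sham-DMI, and was 8 with the share of read pairs outside genes as a covariate. Of all genes, 1692 differed in either direction at that nominal p in the full fit. In the settings just named, 1217, 1266, 1444, 2736 and 2000 did, in the same order. The values farthest from 0 among the members were those of Ndufa6 (-0.26), a Q module subunit, and Ndufb3 (-0.26), of the distal membrane arm. The summed levels lay close in both DMI groups, with summed member CPM of 4284 ± 320 in Sham-DMI and 4303 ± 100.1 in SNI-DMI, while the saline groups stood at 3457 ± 179 (Sham-Saline) and 3952 ± 160.2 (SNI-Saline, SD, n = 4).

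**Figure D5:**
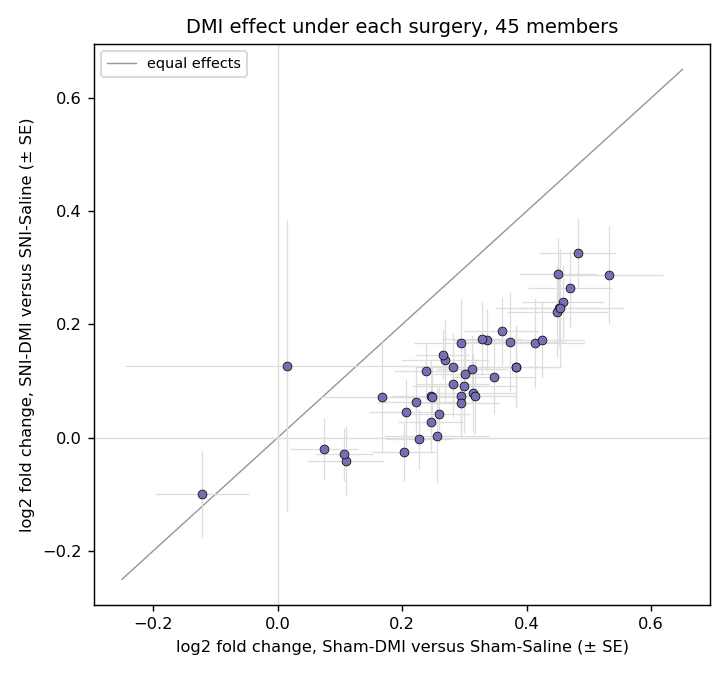
DMI effect on each of the 45 tested members in sham-operated mice (x axis) and in injured mice (y axis), both as log2 fold change ± SE. Nearly all points (43 of 45) lie below the line of equal effects, and no member's difference passed the test at an adjusted p under 0.1.

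Ndufs1, Ndufa4l2, Ndufaf1, Ndufaf4, Ndufaf6 and Ndufaf7 passed in none of these comparisons without the offsets. Ndufaf4 (ENSMUSG00000028261, chromosome 4, 24898083 to 24905001, plus strand), an assembly factor with a long GC-poor transcript, was measured at 27.8, 26.9, 24.7 and 27.4 CPM under Sham-Saline, 26.02, 23.03, 26.2 and 27.8 CPM under SNI-Saline, 21.8, 26.05, 24.8 and 25.6 CPM under Sham-DMI, and 22.7, 21.8, 25.3 and 26.5 CPM under SNI-DMI. These groups overlapped throughout. Its log2 fold changes were -0.05 for injury, -0.10 for DMI under SNI and -0.12 for DMI under sham, with adjusted p from 0.299 to 0.739, and with the offsets they turned positive (0.03, 0.07 and 0.10). Ndufa4l2 (ENSMUSG00000040280, chromosome 10, 127514967 to 127517154, plus strand) was measured at 0.661, 0.833, 1.09 and 1.22 CPM under Sham-Saline, 0.761, 0.945, 0.755 and 1.41 CPM under SNI-Saline, 0.769, 0.645, 1.20 and 1.28 CPM under Sham-DMI, and 1.06, 1.10, 0.858 and 1.21 CPM under SNI-DMI. At this level the SE of its fold changes was 0.26, and a change of the size seen in the other members was not detectable.

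Ndufa4 and Ndufab1, which have roles outside complex I, also rose under DMI in sham-operated mice. Ndufa4 (ENSMUSG00000029632, chromosome 6, 11900292 to 11907497, minus strand) was measured at 236, 254, 213 and 249 CPM under Sham-Saline, 286, 271, 244 and 268 CPM under SNI-Saline, 319, 254, 309 and 301 CPM under Sham-DMI, and 287, 281, 283 and 277 CPM under SNI-DMI. Its Sham-DMI mice overlapped Sham-Saline through replicate 2 of each group, and the comparison gave a log2 fold change of 0.31 (SE 0.07) at an adjusted p of 0.00669. Ndufab1 (ENSMUSG00000030869, chromosome 7, 122085403 to 122101886, minus strand) was measured at 33.5, 34.6, 30.6 and 33.1 CPM under Sham-Saline, 36.7, 37.9, 35.5 and 36.5 CPM under SNI-Saline, 39.6, 36.6, 37.6 and 41.6 CPM under Sham-DMI, and 39.98, 40.2, 39.98 and 38.9 CPM under SNI-DMI. Without overlap between the sham groups, it rose under DMI with a log2 fold change of 0.24 (SE 0.05) at an adjusted p of 0.00574, and after injury with 0.15 (adjusted p = 0.0791).

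Other respiratory chain genes encoded in the nucleus also rose under DMI in sham-operated mice, a comparison in which 2475 of 21371 genes rose and 2535 fell without the offsets, and 3385 rose and 786 fell with them. Under DMI in sham-operated mice 10 of 10 complex IV subunits (median 0.35), 9 of 9 complex III subunits (0.40), 16 of 17 complex V subunits (0.27) and 3 of 4 complex II subunits (0.15) rose. After injury 9 of 10, 4 of 9, 11 of 17 and 2 of 4 rose in the same order of complexes, where 1250 of all genes rose. With the offsets the injury counts were 2 of 10, 2 of 9, 4 of 17 and 0 of 4 and the DMI counts 10 of 10, 9 of 9, 17 of 17 and 3 of 4. The 7 complex I subunits encoded in mitochondrial DNA went differently: none rose in either comparison and 1 (mt-Nd4l) fell under DMI in sham-operated mice, with a median of -0.13. With the offsets that median was 0.12 and 3 of 7 rose, so the direction of this list flipped with the setting. Of 11 further complex I assembly genes, 5 rose and 1 fell under DMI in sham-operated mice. Among 12 regulators of mitochondrial biogenesis 2 rose, a share near that of all genes, and 5 fell in that comparison (median -0.03). With the offsets 3 rose and 1 fell (median 0.10). The values ran from -0.45 to 0.23, and from -0.45 to 0.30 with the offsets, so the largest fall exceeded that of Yy1 given below. Nrf1, which encodes NRF-1, had a log2 fold change of 0.16 (adjusted p = 0.0666) and Esrra, a nuclear receptor that drives mitochondrial genes, of 0.23 (adjusted p = 0.0195). Yy1 was lower under DMI in sham-operated mice, at -0.16 (adjusted p = 0.0348), and after injury, at -0.20 (adjusted p = 0.0279). With the offsets the Yy1 values were -0.10 (adjusted p = 0.221) and -0.19 (adjusted p = 0.0562).

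Markers of other cell types moved in part with the same groups. Of 10 sensory neuron markers 3 rose under DMI in sham-operated mice (median 0.14, summed CPM 10045 to 10976 in Sham-Saline and 10878 to 13089 in Sham-DMI) and 1 after injury (10415 to 11603 in SNI-Saline). Of 6 neutrophil markers 5 fell under DMI in sham-operated mice, from 9.99 to 38.5 CPM in sum in Sham-Saline to 3.72 to 17.3 CPM in Sham-DMI. Under DMI in injured mice 1 fell, from 14.8 to 49.0 CPM in sum in SNI-Saline to 4.25 to 13.5 CPM in SNI-DMI. The median log2 fold changes of these markers were nevertheless close, at -1.55 in sham-operated and -1.40 in injured mice. Of 6 macrophage markers 2 rose after injury (55.4 to 64.8 CPM in Sham-Saline and 62.1 to 105.9 CPM in SNI-Saline), and 1 fell under DMI in sham-operated mice. Satellite glia markers went both ways (2 of 6 higher and 2 lower under DMI in sham-operated mice), none of the 6 Schwann cell, 6 skeletal muscle, 3 brown fat, 4 white fat and 5 red cell markers tested passed in that comparison, and 2 of 5 spinal cord markers fell. The brown fat markers Ucp1, Cox8b and Elovl3 and the white fat markers Lep and Plin1 stayed below 1 CPM everywhere. Their part in the results was not tested. Without SNI-DMI replicate 2, the library richest in muscle markers, no gene of any kind passed in SNI-DMI versus SNI-Saline (members' median 0.11), as was the case without SNI-DMI replicate 1 or 3, while 39 members passed in Sham-DMI versus Sham-Saline and 29 after injury.

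Genes with related names that are not members were also counted. Ndufb1-ps, annotated as a non-coding gene, stood at 43.1 to 55.4 CPM in Sham-Saline and 52.5 to 66.6 CPM in Sham-DMI and had a log2 fold change of 0.33 (adjusted p = 0.012) in that comparison. The pseudogenes Ndufab1-ps (4.81 to 7.12 CPM over all mice), Ndufs6b, Ndufa11b and Ndufb4c were low. Read pairs without a unique alignment, 5.71% to 6.40% per library, were listed apart and counted on no gene. Pairs that align equally well to a member and its pseudogene would thus be missing from both, and how many there were was not tested.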

How the data were processed

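The mRNA of 16 DRG samples was sequenced with a stranded kit as 2 × 50 base reads. The deposited counts are whole read pairs per Ensembl gene, made by the authors on mm10 with their NGS-Data-Charmer pipeline. Their processing notes name HISAT2, HTSeq and DESeq2. The versions of HISAT2 and HTSeq, the annotation release and the strand setting are not given in the sources used here. Gene reads numbered 41194238 to 73920332 per library, and lines that name no gene were left out. Groups came from the sample labels, 1 mouse per library.

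Counts were filtered with filterByExpr, scaled by TMM and fitted with edgeR 4.0.16 (R 4.3.3) by the quasi-likelihood test over all 16 libraries, with 1 coefficient per group. Benjamini-Hochberg adjustment ran over 21371 genes, with a threshold of 0.1. CPM values use the same scaling. Offsets for GC content and length came from a smooth (mgcv 1.9.3, basis size 8) of each library's log2 deviation on exon GC content and log2 merged exon length, from GENCODE gene models of GRCm38, in which 147 gene IDs of the files had no entry. The fit was also run on simulated counts with known changes, with and without a GC trend in the DMI groups. Length trends and blocks of library numbers were not simulated, and the outcome is not given here.

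Values per mouse are given for the nuclear core subunits (1 is not reported here), for the 3 members with the smallest p in each direction in each comparison, for the highest and lowest member per kilobase, and for Ndufa4, Ndufa4l2 and Ndufab1. The members, gene lists and tests were chosen with earlier results of these data known. Alternatives were offsets for GC content or length alone or from principal transcripts, a replicate block, DESeq2 1.42.0, no filter on low counts, the 8 libraries of a comparison alone, the DEG cut-offs of the study, the share of reads outside genes as a covariate, and each library left out in turn. Each p-value sets a group difference against the spread between mice within the groups. Each group was also 1 block of library numbers, so differences between blocks are not part of that spread.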

Additional observations from a re-analysis of the deposited data

Results flagged for a closer look

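Within the groups of 4 mice, 68 sets of values (members given by mouse, and their mean) were checked for a mouse that lay far from the other 3 (a gap to the nearest mouse that took up most of the range of the group, by Dixon's critical value), and chance gives about 1 such set in 20. This was the case in 5 sets. SNI-DMI replicate 3 was far above the other SNI-DMI mice in the mean log2 deviation of all members (0.15), in Ndufb10 (144.8 CPM) and in Ndufv2 (181.8 CPM), all within a group of narrow spread. Its share of read pairs outside genes, 8.38%, was the highest of its group. SNI-DMI replicate 4 was far below the others in Ndufab1 (38.9 CPM), and Sham-DMI replicate 4 far above them in Ndufs1 (187.3 CPM).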

How the results depend on the processing

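Counts of members with an adjusted p under 0.1 depended on the setting in both SNI comparisons, and medians less so. For SNI-Saline versus Sham-Saline (29 members) the count was 16 with a GC content offset, 10 with a length offset, 5 with both, 2 with both from principal transcripts (median 0.11), 0 with the share of reads outside genes as a covariate (an alternative chosen, like the principal transcripts, after seeing the data) and 1 by the DEG cut-offs. Of all genes 1250 were called higher, and 746, 558, 489, 295, 128 and 777 in these settings. For SNI-DMI versus SNI-Saline (5 members) it was 0 with a GC content offset, 8 with a length offset, 1 with both, 0 with principal transcripts, 16 in edgeR on the 8 libraries of the comparison, 10 in DESeq2 and 1 by the DEG cut-offs. Of all genes 282 were called higher, and 1, 588, 37, 38, 905, 847 and 412 in these settings. For DMI in sham-operated mice (39) the covariate gave 23 and the DEG cut-offs 17, and the DEG cut-offs gave 8 for DMI averaged over both surgeries (38).

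Mice of different groups that carry the same replicate number showed low correlations of their deviations from the group means (-0.08 to 0.18). Mice with different numbers were not compared in this way, so whether the numbers pair the samples was not tested. With a replicate block 2 members passed in SNI-DMI versus SNI-Saline and 21 in SNI-Saline versus Sham-Saline, where 86 and 1007 of all genes were called higher. The block together with both offsets gave 0 and 4 members, where 0 and 288 of all genes were called higher.

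Leaving out each library in turn gave 8 to 35 members for injury (medians 0.16 to 0.23), 0 to 12 for DMI in injured mice (0.09 to 0.14), 38 to 42 for DMI in sham-operated mice (0.28 to 0.36), 36 to 40 for DMI averaged (0.19 to 0.24) and 0 for the difference between both DMI effects (-0.24 to -0.17). Of all genes 344 to 1722, 0 to 879, 1880 to 3270 and 2473 to 3845 were called higher in these fits, for injury and the DMI comparisons in that order. With both offsets the injury count ranged from 1, without replicate 3 of Sham-Saline and without replicate 1 of SNI-Saline, to 13, without either of Sham-DMI replicates 1 and 2. Of all genes 124 and 132 were called higher in the fits with 1 member, and 779 and 786 in those with 13. No called member given by mouse changed direction under any alternative. Ndufa4l2 is low enough that counting error is large, and the count of Ndufs3 is not read as a level.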
